A study of Mus musculus with 4 samples.

Results

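The 9 genes described here encode the kinases that switch on the transcription factors NF-kB and IRF3 in macrophages, together with their adaptors and their brake: Chuk, Ikbkb, Ikbkg, Tbk1, Ikbke, Map3k7, Tab1, Tab2 and Tnfaip3. They were taken by name from 21883 protein-coding genes, and each was given the peaks that overlapped its RefSeq gene or lay within 1000 bp of it. The rule gave 13 H3K4me3 peaks in wild type and 12 in Sun-/-, and 4 H3K9me3 peaks in wild type and 7 in Sun-/-. The peaks come from a ChIP-seq (chromatin immunoprecipitation with sequencing) study of H3K4me3, a histone mark of active gene starts, and H3K9me3, a mark of silenced chromatin. The cells were macrophages drawn into the peritoneum of C57BL/6 mice with thioglycollate broth, harvested at 8 weeks of age and cultured in serum. There were 4 groups, wild type and Sun-/- for each mark, with 1 library in each, and all groups shared the strain, age and cell preparation. Which gene Sun stands for, how it was inactivated and whether animals were pooled are not given in the sources used here. With single libraries the genotypes cannot be tested against the spread between replicates, and every interval below is a 95% interval that covers counting error only.

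By way of background, signals from Toll-like and cytokine receptors build ubiquitin chains to which the adaptor TAB2 brings the kinase TAK1, the product of Map3k7. TAB1 binds TAK1 directly and activates it. TAK1 activates the IKK complex, made of the kinases IKKα (Chuk) and IKKβ (Ikbkb) and the scaffold NEMO (Ikbkg), which marks the NF-kB inhibitors for destruction. The related kinases TBK1 and IKKε (Ikbke) phosphorylate IRF3 and so start the interferon response. A20, the product of Tnfaip3, is a ubiquitin-editing protein that NF-kB itself induces and that shuts the pathway down.

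Once duplicates were taken out, 29681491 (H3K4me3, wild type), 26748289 (H3K4me3, Sun-/-), 27727997 (H3K9me3, wild type) and 28586946 tags (H3K9me3, Sun-/-) remained per library. The H3K4me3 lists held 31398 peaks in wild type and 28505 in Sun-/-, with 17.81% and 14.04% of the tags in peaks. The Sun-/- library was thus less enriched as a whole. The part of this in the tag counts, widths and calls below was not tested. H3K4me3 was found in both genotypes at all 10 macrophage markers, among them Adgre1, Csf1r and Spi1. Of the other lists, of 5 genes each, it marked 2 for B cells (Cd79a and Pax5) and 2 for T and NK cells (Cd3d and Lck) in both genotypes. It likewise marked 1 for mast cells and eosinophils (Siglecf), 3 for dendritic cells (Flt3, Zbtb46 and Xcr1) and 2 for mesothelium and fibroblasts (Wt1 and Col1a1). Cd3e and Cpa3 had no H3K4me3 peak, and Msln was the only mesothelial or fibroblast marker without one in either genotype. Of the neutrophil markers 0 of 5 were marked in both genotypes, S100a8 and Camp were marked in Sun-/- alone, and the mesothelial markers Upk3b and Krt19 were marked in wild type alone. Summed over each list, H3K4me3 tags went from 4702 in wild type to 3817 in Sun-/- for macrophages, from 736 to 524 for B cells, from 298 to 234 for T and NK cells, from 1284 to 994 for dendritic cells and from 654 to 347 for mesothelium and fibroblasts. They went the other way for neutrophils, from 0 to 77, and for mast cells and eosinophils, from 32 to 75. For the 9 genes they went from 3562 to 2506, and the part of other cells in this was not tested. In mixed cells, fewer cells that carry the mark and less of the mark per cell cannot be told apart.

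RefSeq promoter sequences of GRCm38.p6, the assembly of mm10, matched 7 of the 9 genes by symbol; Ikbkb and Tab1 were not matched. The 250 bases before the first start of Chuk, Tnfaip3, Tab2 and Ikbke are shown as examples of starts that differ in where and how far H3K4me3 reached. Capitals mark every match, on either strand, to GGGCGG (the GC box), CCGGAA (the core of sites for ETS factors), CACGTG (the E box), TATAAA (the TATA box), GGAATTTCC and the NF-kB consensus. A match describes letters and is no evidence of binding. All 4 lie on the minus strand and are written 5′ to 3′ along the gene, ending at the base before its start.
Chuk, chr19:44107478-44107727: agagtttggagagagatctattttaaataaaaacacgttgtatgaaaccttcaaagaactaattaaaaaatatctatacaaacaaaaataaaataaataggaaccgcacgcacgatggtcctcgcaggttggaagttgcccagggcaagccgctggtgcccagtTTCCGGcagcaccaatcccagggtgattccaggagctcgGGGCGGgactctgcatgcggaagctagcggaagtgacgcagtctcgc
Tnfaip3, chr10:19015411-19015660: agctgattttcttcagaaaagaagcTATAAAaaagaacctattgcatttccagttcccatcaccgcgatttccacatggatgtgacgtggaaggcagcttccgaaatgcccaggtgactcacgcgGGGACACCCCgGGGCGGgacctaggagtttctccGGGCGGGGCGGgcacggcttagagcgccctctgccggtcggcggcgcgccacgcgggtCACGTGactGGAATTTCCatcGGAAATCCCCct
Tab2, chr10:7956124-7956373: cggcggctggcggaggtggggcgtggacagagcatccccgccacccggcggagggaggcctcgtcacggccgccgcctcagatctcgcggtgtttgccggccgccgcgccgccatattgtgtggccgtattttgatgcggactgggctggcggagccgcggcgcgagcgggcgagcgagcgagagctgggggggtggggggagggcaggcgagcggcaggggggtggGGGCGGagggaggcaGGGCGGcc
Ikbke, chr1:131279564-131279813: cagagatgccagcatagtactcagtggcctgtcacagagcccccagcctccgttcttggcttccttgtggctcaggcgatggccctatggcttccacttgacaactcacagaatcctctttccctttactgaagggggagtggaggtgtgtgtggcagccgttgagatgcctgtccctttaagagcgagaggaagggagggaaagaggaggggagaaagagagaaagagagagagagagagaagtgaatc
The Chuk sequence opens with an AT-rich stretch and holds its matches close to the start. The Tnfaip3 sequence ends in an E box, a GGAATTTCC and an NF-kB match packed side by side. The Ikbke sequence closes on a run of G and A and has no match at all.

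Over the 300 bases that run on 50 bases past the start, the Tab2 promoter held 44 CpG dinucleotides, above 97.8% of 32851 promoters. Tbk1 held 37, Map3k7 36, Tnfaip3 22, Chuk 21 and the first Ikbkg promoter 15. Ikbke held 4, above 31.4% of promoters, although the median over all promoters was 7. Only the Tnfaip3 and Map3k7 promoters of the 7 genes held an NF-kB match, as did 8.46% of all promoters. In Tnfaip3 the matches ran from 125 to 116 and from 12 to 3 bases before the start, with a GGAATTTCC from 24 to 16 bases before it. In Map3k7 an NF-kB match from 92 to 83 bases before the start overlapped a GGAATTTCC, read on the other strand. GGAATTTCC was in 0.317% of all promoters, the GC box in 35.7%, the ETS core in 14.9%, the E box in 7.15% and the TATA box in 13.6%.

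The first comparison asked how H3K4me3 at these genes differed without Sun. All 9 genes carried H3K4me3 in both genotypes, against a background of 67.3% of protein-coding genes marked in both, 2.93% in wild type alone and 1.43% in Sun-/- alone. A peak pair, 1 peak of each genotype that overlapped each other alone by at least 50% of the wider, was found at the start of all 9. Every one of these peaks held fewer tags in Sun-/-, as did 95.7% of the 10985 gene-start pairs. In width, 6 of the 9 peaks were narrower in Sun-/-, against 70.0% of gene-start pairs. The members held a median of 66.8% of their wild-type tags, and all gene-start pairs a median of 70.6%. To set this common shift aside, tags per kb of peak were compared as a log2 ratio of Sun-/- to wild type, less the median over all 17114 pairs (the centred ratio). On that scale the 9 genes had a median of -0.05, and all gene-start pairs -0.03 with an SD of 0.22. Chuk lay above 0 and the other 8 genes below.

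**Figure D1:**
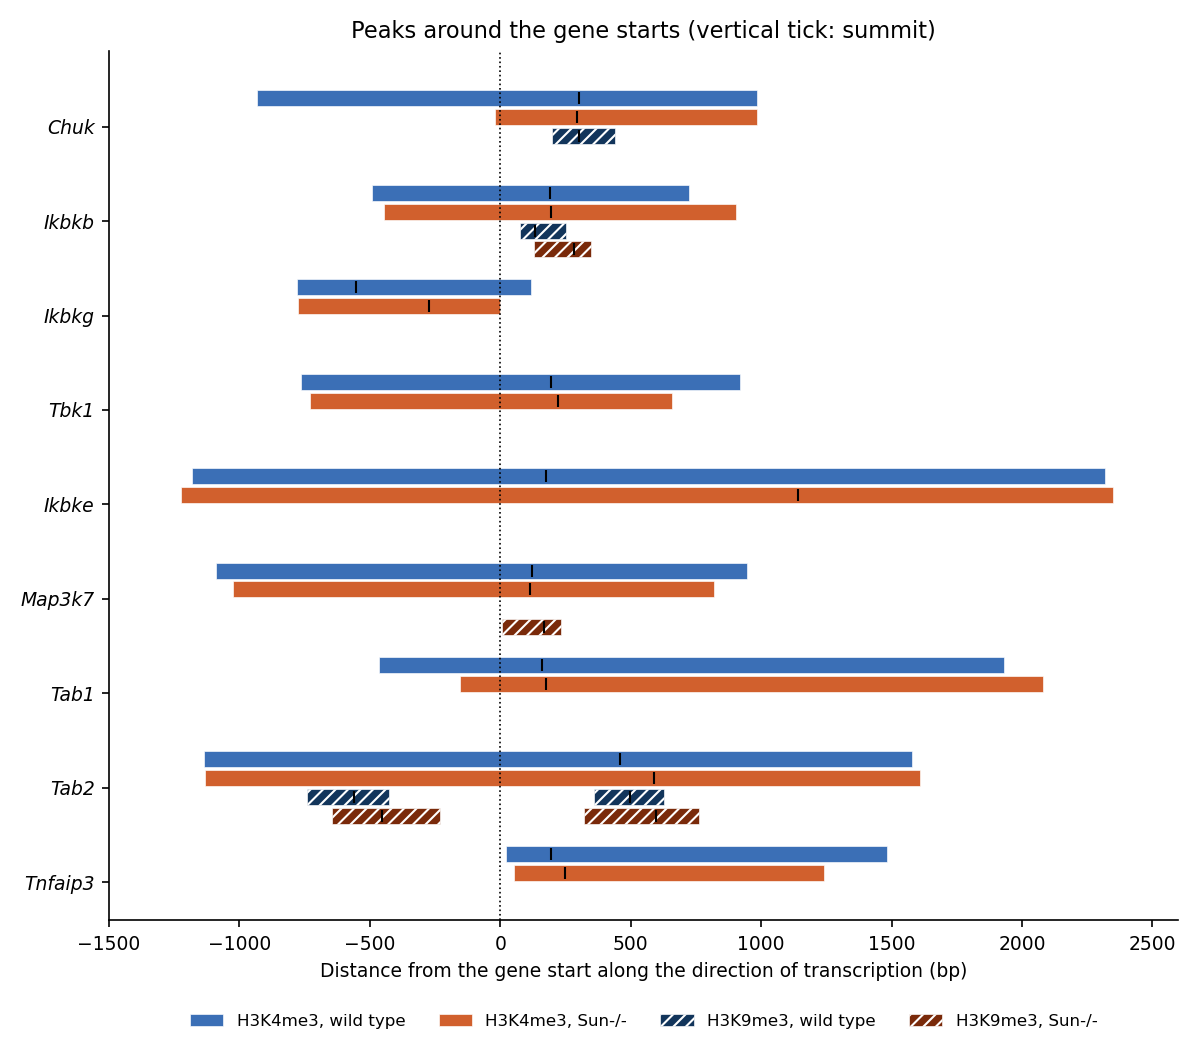
Peaks of the 4 libraries around the start of each gene. The x axis is the distance from the first RefSeq start in bp (from the gene end under the peak for Ikbkb and Tab1), bars are the called extents and ticks are summits. The Sun-/- peak of Chuk stops 20 bp before the start where the wild-type peak runs on to 933 bp, and both Tnfaip3 peaks begin past the start.

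By 1 call rule, an interval of the centred ratio that leaves out 0, Chuk was the only gene called, and it was called as denser. That rule called 16.0% of all pairs, 8.73% above and 7.26% below 0, so 1 of 9 is near the background. By the other rule, a change of at least 2-fold, 0 of 9 genes were called, against 0.0409% of pairs above and 0.0117% below. Scaled to filtered tags in place of centring, which moves the median of all pairs by -0.19, the median of the 9 genes was -0.24, and the intervals of Ikbkb, Ikbke, Map3k7, Tab2 and Tnfaip3 lay below 0 and that of Chuk above it. Over gene-start pairs that scaling put 38.1% of intervals below 0 and 1.85% above. Scaled to total tags the median was -0.14, and the intervals of Ikbkb, Tab2 and Tnfaip3 lay below 0 and that of Chuk above, against 20.4% and 4.62% of gene-start pairs. How many genes lie below 0 beyond counting error is therefore set by the scaling, while Chuk stayed above 0 under both.

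In wild type, Tab2 had the densest start peak with 311 tags per kb (291 to 333), higher than 99.3% of gene-start pairs and apart from all other members. Tnfaip3 followed with 215 tags per kb (192 to 241), Ikbkb with 198, Map3k7 with 189, Tbk1 with 174, Ikbke with 160.1, Chuk with 156, Tab1 with 134 and Ikbkg with 120.3 (98.7 to 145). From Tnfaip3 on, each gene's interval overlapped that of the next. Overlap of separate intervals does not settle whether neighbours in this order differ, and their differences were not tested. In Sun-/-, Tab2 was again first with 225 tags per kb (207 to 243), and Chuk moved from the seventh place to the second with 180.3 (155 to 209). Tab1 and Ikbkg were again the last with 103 and 91.6 tags per kb. In Sun-/- every neighbour's interval overlapped the next, those of Tab2 and Chuk and of Chuk and Tnfaip3 included. Here too the differences between adjacent genes were not tested. Unscaled, the intervals of the genotypes did not overlap for 7 of the 9 genes, all but Chuk and Ikbkg, and 45.5% of all gene-start pairs did the same.

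**Figure D2:**
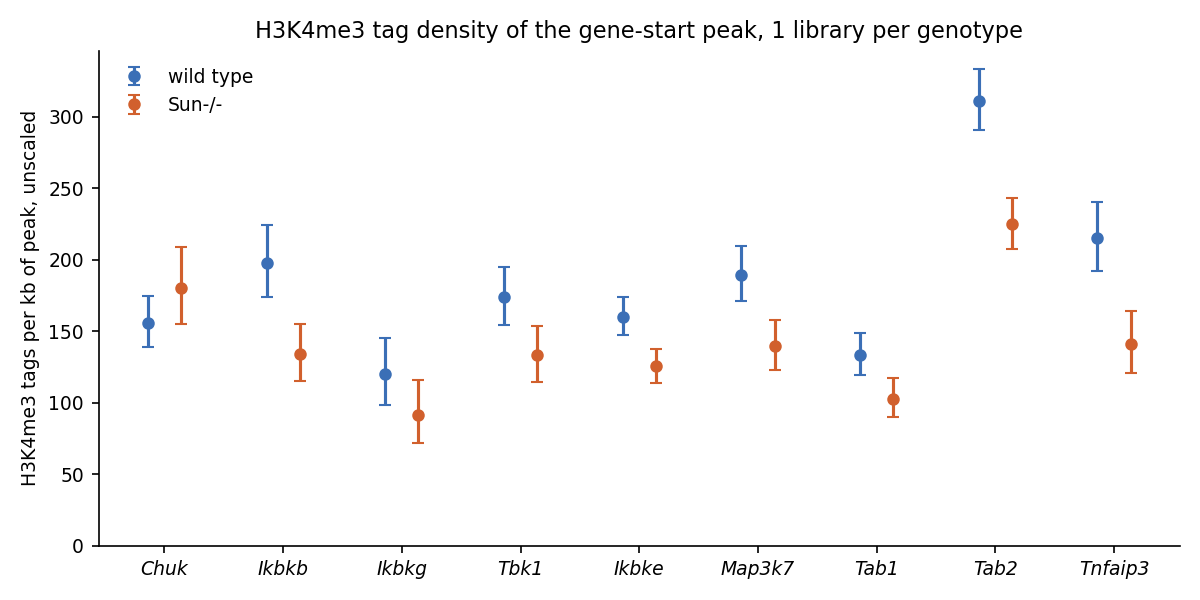
H3K4me3 tags per kb of the gene-start peak (y axis, unscaled) in wild type and Sun-/- for the 9 genes. Points are 1 library each and bars are 95% Poisson intervals; Tab2 is highest in both, and Chuk is the only gene with the higher point in Sun-/-.

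Chuk encodes IKKα, the kinase of the IKK complex that also drives the alternative NF-kB pathway. The gene spans 34.2 kb on chromosome 19 (44073334 to 44107505). Its wild-type peak held 299 tags over 1916 bp and its Sun-/- peak 181 tags over 1004 bp. Both peaks ended at nearly the same place inside the gene, 982 and 983 bp past the start, with summits 301 and 293 bp past it. On the other side the wild-type peak reached 933 bp before the start and the Sun-/- peak 20 bp. The GC box from 47 to 42 bases and the ETS core from 86 to 81 bases before the start, capitals in the sequence above, thus lay inside the wild-type peak and outside the Sun-/- peak. Of the 300-base promoter, the wild-type peak covered all 300 bases and the Sun-/- peak 70.

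The centred density ratio of Chuk was 0.55 (0.27 to 0.82), above 99.0% of gene-start pairs. Counted as tags per peak and centred in the same way it was -0.25 (-0.52 to 0.03). The direction for Chuk thus turns with the division by width: fewer tags, in a peak of 0.524 times the width. The wider peak was shared over 52.3%, just past the limit for a pair, and with a limit of 80% Chuk had no pair. A Sun-/- peak at most 0.6 times as wide as its partner was found in 4.23% of gene-start pairs, 465 in number, and their median ratio was 0.30. Across the 10985 gene-start pairs the centred ratio and the log2 width ratio had a Pearson correlation of -0.46, a description of peaks from the same pair of libraries in which width is a term of both.

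**Figure D3:**
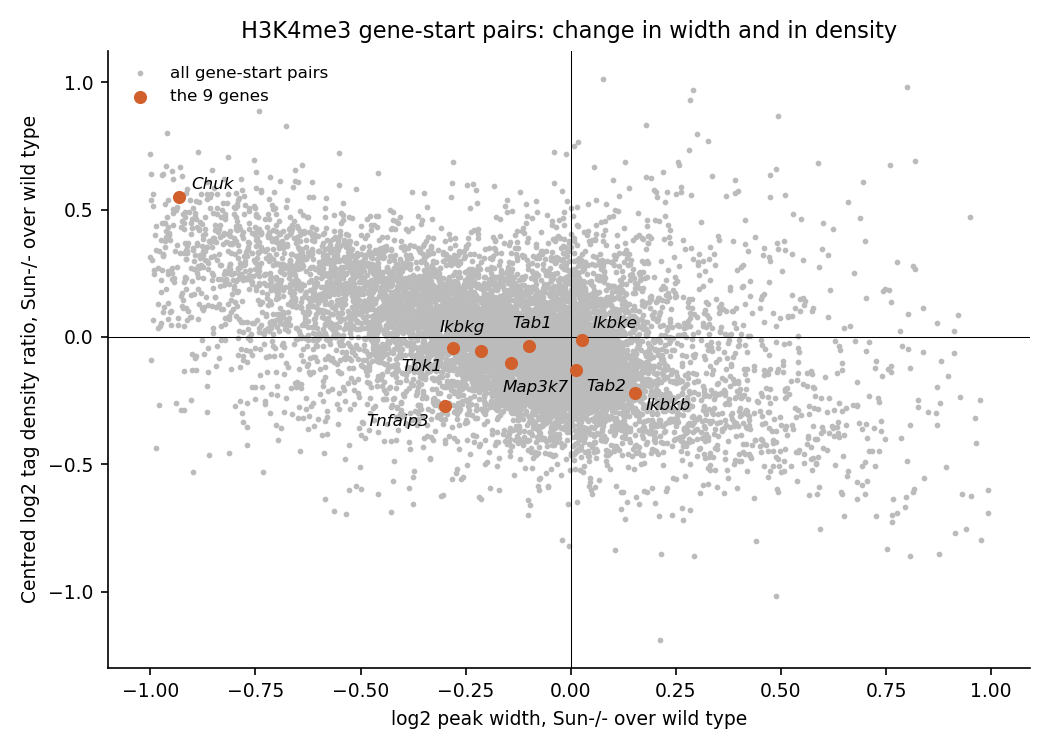
Centred log2 ratio of H3K4me3 tag density (y axis) against log2 ratio of peak width (x axis), Sun-/- over wild type, for 10985 gene-start pairs (grey) and the 9 genes (orange). Chuk sits at the upper left among narrowed peaks; the other 8 genes lie within 0.27 of the zero line.

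The 3 protein-coding genes whose levels in both H3K4me3 libraries were nearest to those of Chuk were Tarsl2, Tyro3 and Adcy6, at distances of 0.017, 0.018 and 0.019 in log2 tags per kb over these libraries. Their peaks narrowed too, as did 70.0% of gene-start pairs. They were picked by tags per kb, in which width is a term, so the narrowing is no separate support. Tarsl2 went from 228 tags over 1478 bp to 146 over 811 bp, Tyro3 from 439 over 2840 bp to 332 over 1856 bp, and Adcy6 from 462 over 2998 bp to 332 over 1837 bp. The wild-type Chuk peak also ended within 1000 bp of the far end of Cwf19l1, whose own first start lies at 44135456, and the Sun-/- peak did not.

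Ikbkb encodes IKKβ, the main kinase of NF-kB inhibitors in inflammation, and spans 47.4 kb on chromosome 8 (22659205 to 22706589). Its only H3K4me3 peak in each genotype lay over the gene end at 22706589. It held 240 tags over 1213 bp in wild type and 181 tags over 1349 bp in Sun-/-. Its centred ratio was -0.22 (-0.51 to 0.06). Unlike the Chuk peak it was wider in Sun-/-, and as tags per peak its ratio was 0.07 (-0.22 to 0.36). The paralogous kinases of the complex thus had the highest and the second lowest density ratio of the 9 genes, with opposite changes in width. As tags per peak their order was the reverse, with intervals that overlapped.

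Ikbkg encodes NEMO, the regulatory subunit without kinase activity, and spans 63.6 kb on the X chromosome (74393233 to 74456792). It was the one gene with 3 H3K4me3 peaks in each genotype. The first, at the first start, held 108 tags over 898 bp in wild type and 71 over 775 bp in Sun-/-, with a ratio of -0.05 (-0.51 to 0.39). This was the narrowest start peak of the group, wider than 6.67% and 5.95% of gene-start pairs in the respective genotypes. The other peaks lay more than 35 kb further in, at the third and the fourth RefSeq start of the gene, 74429315 and 74429681. They held 55 and 68 tags in wild type and 43 and 33 tags in Sun-/-, with ratios of 0.05 (-0.56 to 0.65) and -0.28 (-0.92 to 0.34). The second start, at 74424612, had no peak over its promoter in either genotype. None of the 3 peaks belongs to Ikbkg alone. Fam3a starts at 74393274, within the first peak, and G6pdx, the gene of glucose-6-phosphate dehydrogenase, starts at 74428880, within 1000 bp of the other peaks.

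Tbk1 encodes the kinase that phosphorylates IRF3 downstream of nucleic acid sensors, and spans 40.3 kb on chromosome 10 (121546455 to 121586794). Its start peak held 293 tags over 1684 bp in wild type and 185 tags over 1388 bp in Sun-/-, with a centred ratio of -0.05 (-0.32 to 0.23). The peaks also reached the far end of Xpot, which runs the same way and ends at 121587380, while its own first start lies at 121626332. In Sun-/- a second, weak peak of 92 tags over 1646 bp was called inside the gene, from 6459 to 8104 bp past the start, with a fold enrichment of 2.80 over the caller's background. This value is the authors' own, as are all scores and fold enrichments here. No wild-type peak overlapped it, as was the case for 19.8% of Sun-/- peaks. Summed over all peaks of the gene, Tbk1 held 293 tags over 1684 bp in wild type and 277 over 3034 bp in Sun-/-. As tags per kb covered its ratio was then -0.60 (-0.85 to -0.36). A weak peak summed in lowers the tags per kb of the genotype that carries it, although it adds tags there. This ratio thus does not measure a loss of the mark.

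Ikbke encodes IKKε, the inducible relative of TBK1, and lies on chromosome 1 (131254600 to 131279601). Its start carried the broadest H3K4me3 peak of the 9 genes, 3504 bp with 561 tags in wild type and 3571 bp with 448 tags in Sun-/-. These widths exceeded 93.8% and 95.5% of gene-start pairs. The peak was broad and of middling density, above 52.5% and 53.3% of gene-start pairs in tags per kb. Its fold enrichments of 4.74 and 3.72 were the lowest of the 9 start peaks in either genotype, although its promoter, shown above, was covered in full. These are set against the caller's background, which rises with broad domains. Tab2, with the densest peak, had the next lowest fold enrichments, 7.3 and 7.36. The centred ratio was -0.01 (-0.19 to 0.17), the nearest to 0 of all. The summit lay 175 bp past the start in wild type and 1142 bp past it in Sun-/-. The lncRNA gene Gm51644 overlaps this peak. Of the peaks just outside the 1000 bp window, the nearest was a wild-type H3K4me3 peak of 83 tags 1404 bp beyond the far end of Ikbke, with no Sun-/- peak there. Within 5000 bp there were further H3K4me3 peaks near Chuk, with 305 and 231 tags in wild type and Sun-/-, and near Tbk1, with 95 and 85 tags, and a wild-type H3K9me3 peak of 12 tags near Tab1.

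Map3k7 encodes TAK1, the kinase upstream of IKK and of the MAP kinases, and spans 60.0 kb on chromosome 4 (31963492 to 32023470). Its start peak held 386 tags over 2037 bp in wild type and 258 tags over 1847 bp in Sun-/-, with a centred ratio of -0.10 (-0.33 to 0.13). The extents were nearly the same, from 1090 bp before to 946 bp past the start in wild type and from 1026 bp before to 820 bp past it in Sun-/-. In wild type alone a second peak of 45 tags over 751 bp lay 47301 to 48051 bp past the start. With this peak summed in, wild-type density fell from 189 to 155 tags per kb and the ratio of Map3k7 turned to 0.18 (-0.05 to 0.41). As at Tbk1, a ratio that moves with a weak peak summed in does not measure a change of the mark. Among all wild-type H3K4me3 peaks, 28.1% had no Sun-/- partner.

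Tab1 encodes an activator that binds TAK1 directly, and spans 28.6 kb on chromosome 15 (80133127 to 80161707). Its peak held 320 tags over 2395 bp in wild type and 230 tags over 2235 bp in Sun-/-, with a centred ratio of -0.04 (-0.29 to 0.21). It began 464 bp outside the gene in wild type and 154 bp outside it in Sun-/-. The lncRNA gene Gm31253 overlaps this peak.

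Tab2 encodes the adaptor that ties TAK1 to ubiquitin chains, and spans 50.6 kb on chromosome 10 (7905648 to 7956255). Its start peak, over the most CpG-rich of the promoters, held 845 tags over 2714 bp in wild type and 616 tags over 2739 bp in Sun-/-. The scores, which grow as the caller's p-value falls, were 1842 and 1250 and lay above 99.9% and 99.6% of the peaks in the respective lists. The peak reached 1136 and 1131 bp before the start, so its width was kept, and the centred ratio was -0.13 (-0.28 to 0.02). A peak of 27 tags inside the gene was called in wild type alone. With this weak peak summed in, wild-type density fell from 311 to 262 tags per kb and the centred ratio turned to 0.10 (-0.05 to 0.25). As at Tbk1, that turn does not measure a change of the mark. As tags per peak of the start peak alone it was 0.02 (-0.13 to 0.17), so the direction at Tab2 is not fixed by these counts. The promoter of the second Tab2 start, which held 2 CpG dinucleotides, had no H3K4me3 peak over it in either genotype.

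Tnfaip3, the gene of the brake A20, spans 14.5 kb on chromosome 10 (19000910 to 19015410). Its peak held 315 tags over 1462 bp in wild type and 168 tags over 1189 bp in Sun-/-, or 53.3% of the wild-type tags, the lowest share of the 9 genes. The centred ratio was -0.27 (-0.55 to 0.01), the lowest of the 9 and above 10.8% of gene-start pairs, with an interval that takes in 0. As tags per peak it was -0.43 (-0.71 to -0.15), which leaves out 0. The share of all gene-start pairs that do so as tags per peak was not computed. The interval of the density ratio lay below 0 under both scalings above. It also did so with any overlap (-0.556 to -0.002) and with all peaks of the gene summed (-0.561 to -0.008). With 80% overlap or at least 100 tags it took in 0. Tnfaip3 was also the one gene whose peaks lay wholly past the start, from 22 to 1483 bp in wild type and from 52 to 1240 bp in Sun-/-. The promoter sequence shown above, with its NF-kB, GGAATTTCC and E box matches, thus lay outside the called H3K4me3 of both genotypes, and of the 300-base promoter 28 and 0 bases were covered. The second start, at 19011963, had no peak over its promoter.

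**Figure D4:**
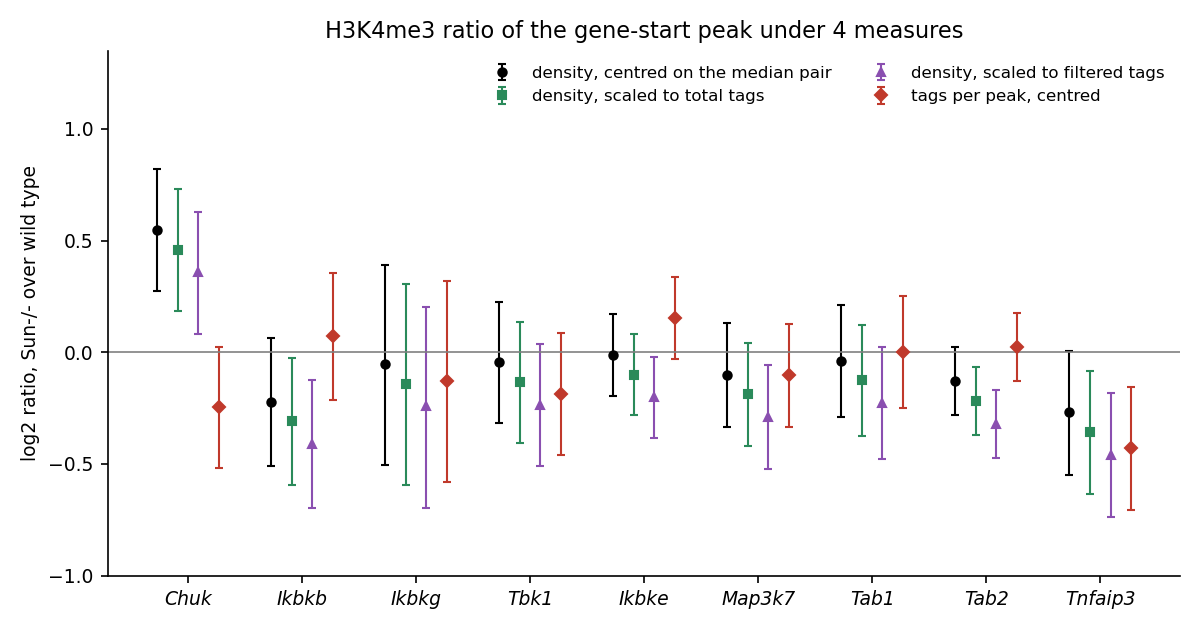
Log2 ratio of H3K4me3, Sun-/- over wild type (y axis), at the start of each gene under 4 measures, with 95% counting intervals. Chuk changes side with tags per peak, from 0.55 to -0.25, while the points of Ikbkg, Tbk1, Map3k7 and Tnfaip3 stay below 0 under all 4.

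The second comparison asked the same of H3K9me3. Peaks of this mark were few and small at these genes, with 12 to 22 tags in wild type and 13 to 36 tags in Sun-/-. Ikbkb and Tab2 had H3K9me3 in both genotypes, Chuk in wild type alone, Tbk1 and Map3k7 in Sun-/- alone, and Ikbkg, Ikbke, Tab1 and Tnfaip3 in neither. The background was 16.9% of protein-coding genes in both, 8.74% in wild type alone and 11.2% in Sun-/- alone, so 1 gene in wild type alone and 2 in Sun-/- alone are close to it. In all, 66 tags over 1000 bp were called at the 9 genes in wild type and 169 tags over 2406 bp in Sun-/-. Since the covered length grew with the tags, this does not measure a change.

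At the Tab2 start, H3K9me3 was called on either side of the start within the H3K4me3 peak in both genotypes. The wild-type peaks held 22 tags from 742 to 428 bp before the start and 17 tags from 358 to 625 bp past it. The Sun-/- peaks held 31 tags from 646 to 233 bp before it and 34 tags from 320 to 761 bp past it. Per kb these were 69.8 and 63.4 tags in wild type and 74.9 and 76.9 tags in Sun-/-, with intervals that overlapped throughout. Only the Sun-/- peaks of Tab2 had a score of at least 100, 121 and 136.

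At the Ikbkb start, peaks of 12 tags in wild type and 14 tags in Sun-/- overlapped each other within the H3K4me3 peak. A further Sun-/- peak of 13 tags lay deep in Ikbkb, 19396 bp from the gene end that carries H3K4me3. At Chuk the wild-type peak of 15 tags lay from 197 to 438 bp past the start, over the H3K4me3 summit. At Map3k7 a Sun-/- peak of 15 tags lay from 6 to 232 bp past the start and another of 26 tags lay 23478 bp past it. At Tbk1 the Sun-/- peak of 36 tags lay 6694 bp past the start, within the weak H3K4me3 peak that was also called in Sun-/- alone.

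Overlapping peaks in the other genotype were found for 3 of the 4 wild-type and 3 of the 7 Sun-/- H3K9me3 peaks, while 67.5% of all wild-type and 64.2% of all Sun-/- H3K9me3 peaks had none. All 4 wild-type and 5 of 7 Sun-/- H3K9me3 peaks of these genes overlapped H3K4me3 of the same genotype. Among all H3K9me3 peaks 22.4% did so in wild type and 33.7% in Sun-/-. Those shares take in peaks away from marked genes, whereas all 9 genes carried H3K4me3, so the bases are unlike. Seen from the H3K4me3 side, the start peaks of 3 of the 9 genes held an H3K9me3 peak in each genotype, Chuk, Ikbkb and Tab2 in wild type and Ikbkb, Map3k7 and Tab2 in Sun-/-. Over all gene-start pairs this was 19.2% in wild type and 24.3% in Sun-/-, and 12.0% in both. Peaks were called without a control library, and the caller's fragment estimate for H3K9me3 was 66 and 71 bp with tags of 50 bp; their part in these small peaks was not tested.

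The third comparison set 45 other genes of the pathway beside the 9, from the receptor-proximal ubiquitin ligases to the partners of A20 and TBK1. H3K4me3 was called in both genotypes at 43 of them and in wild type alone at 2. These were Tnip3 with 36 tags and Zc3h12a with 1201 tags in a peak of 7093 bp. The background for wild type alone was 2.93%. A missing call does not show that the mark is absent, and the peak lists hold no Sun-/- tag count for these 2 places. Zc3h12a encodes the RNase Regnase-1 and Tnip3 a ubiquitin-binding partner of A20. Of the 39 genes with a pair at the start, 12 lay above 0 and 27 below, with a median of -0.07 against -0.03 for all gene-start pairs. The interval left out 0 for 3 genes above and 5 below, 20.5% of the 39, and did so for 18.5% of gene-start pairs, so the list is near its background. The genes called as less dense were Rnf31, Traf2, Rnf11, Traf3 and Tbkbp1. At the 2-fold rule 0 of 39 were called.

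Tnip1, which encodes a partner that A20 needs to restrain NF-kB, had the highest ratio, 0.63 (0.41 to 0.85). It held 278 tags over 2454 bp in wild type and 429 tags over 3096 bp in Sun-/-, so it gained tags as well as density in a wider peak. Map3k14, the gene of the kinase NIK that activates IKKα, was at 0.40 (0.12 to 0.68), with 286 tags over 1969 bp and 168 over 1110 bp. Tab3, the relative of Tab2, was at 0.39 (0.07 to 0.71), with 237 tags over 1692 bp and 126 over 868 bp. These peaks lost tags and width together, as that of Chuk did. At the other end Usp18, the gene of a protease that removes ISG15, was at -0.46 (-1.14 to 0.19) with 73 and 28 tags. Birc2, which encodes a ubiquitin ligase of the TNF receptor complex, was at -0.34 (-0.69 to 0.00), and Rnf31, the catalytic subunit gene of the linear ubiquitin ligase, at -0.34 (-0.56 to -0.12). Rnf31 held 340 tags over 1399 bp in wild type and 342 over 2252 bp in Sun-/-, so its density fell as its peak widened.

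**Figure D5:**
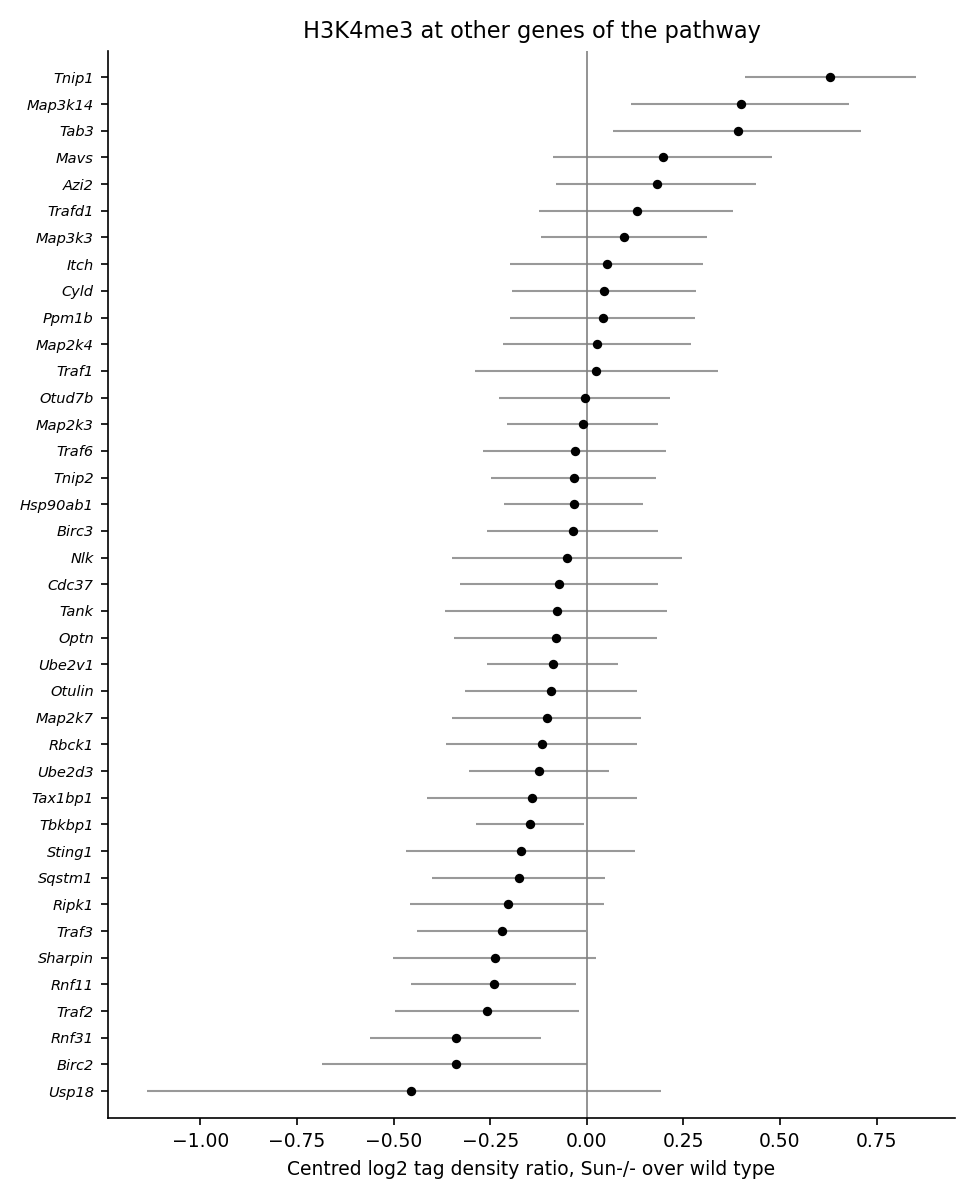
Centred log2 ratio of H3K4me3 tag density, Sun-/- over wild type (x axis), at the start of 39 other pathway genes, with 95% counting intervals. Most intervals take in 0; Tnip1 is highest at 0.63 and Usp18 lowest at -0.46.

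H3K9me3 was called in both genotypes at 9 of the 45 genes, in wild type alone at 3 and in Sun-/- alone at 12, against the 16.9%, 8.74% and 11.2% of all protein-coding genes given above. No test of the list against these shares was made. The most tag-rich peaks lay at genes of ubiquitin-conjugating enzymes, Ube2n with 53 tags and Ube2d3 with 51 tags, both in Sun-/- alone. Map3k3, a MAP kinase kinase kinase gene, had peaks of up to 32 tags in wild type and 31 tags in Sun-/-, and Sqstm1, the gene of the ubiquitin-binding scaffold p62, had 29 tags in Sun-/- alone.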

How the data were processed

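The data were peak lists of 4 ChIP-seq libraries, 1 per mark and genotype, each called separately by the authors. Per the file headers, the authors ran MACS 1.4.2 with no control, a p-value cutoff of 1e-05, duplicates limited to 1 tag per position, and a local background of up to 10000 bp. CASAVA 1.4, Bowtie 0.12.8, DiffBind and the build mm10 were named, per the submitters' processing notes. The deposited values are the tag count of each peak, its width and summit in bp, its score (a multiple of the negative log10 p-value) and its fold enrichment, which is a linear ratio. The background rises with broad domains, and width was called in each library, so density depends on the called extent.

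The members and lists were chosen with earlier results of these data known. From the files were computed, with Python 3.11.15, numpy 2.4.6, pandas 2.3.3 and scipy 1.17.1, the peaks in each gene or within 1000 bp, peak pairs (at least 50% reciprocal overlap, at least 50 tags in 1 library) and centred log2 ratios with exact conditional binomial 95% intervals. Figures were drawn with matplotlib 3.10.9. A gene's pair was the most tag-rich within 1000 bp of a RefSeq start, or of either gene end where no start was matched. Exons and introns are not given, since the gene table used had none. The computation was tested on simulated lists that kept the wild-type peak extents and redrew the tags, so pairs of unlike width, as at Chuk, were not tested. Named were all 9 genes with all their peaks, the genes sharing an H3K4me3 peak with them, the 3 highest and 3 lowest pathway pairs of at least 100 tags in total, pathway genes marked in 1 genotype alone, the 4 with the most H3K9me3 tags, and the 3 genes nearest to Chuk; the other pathway genes called by interval were named after their values were seen, and the 6 motifs were chosen with the sequences in view. Alternatives were other windows, a score limit, other scalings, tags per peak, other overlap and tag limits, and sums over all peaks of a gene; any overlap, leaving out Chuk and a limit on width were added after seeing the data.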

Additional observations from a re-analysis of the deposited data

How the results depend on the processing

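The 9 members and the 43 pathway genes with H3K4me3 in both genotypes stayed at 9 and at 42 to 43 with windows of 500 and 2500 bp and with a score of at least 100. The H3K9me3 count of 2 genes in both genotypes kept its value in both windows but was 0 with a score of at least 100, where Tab2 alone remained, in Sun-/-. Scaled to tags after duplicate removal, the median ratio moved to -0.24 for the 9 genes and to -0.26 for the pathway list. Of 62 values of single members under the alternatives, 54 stayed within the member's own interval and 8 left it. Among the latter was Chuk, the one gene called by the centred density ratio, which turned to -0.25 as tags per peak, with an interval that took in 0. By that measure Tnfaip3 was the only gene whose interval left out 0, and it lay below. In all, 10 of the values, for 6 members (Chuk, Ikbkb, Ikbke, Map3k7, Tab1 and Tab2), had the other sign than the centred ratio, and 0 of these 10 had an interval that left out 0. The change of Map3k7, and that of Tab2 over all peaks, came with a weak wild-type peak summed in. The 80% overlap left Chuk without a value. No paired analysis was possible because each group has 1 library and the labels carry no replicate numbers, and leaving out a replicate was not possible for the same reason. The H3K9me3 peaks at these genes held at most 36 tags, so their counting intervals are wide.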
